A study of Mus musculus with 12 samples.

Results

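The 10 circadian clock genes described here are Arntl, Clock, Npas2, Per1, Per2, Per3, Cry1, Cry2, Nr1d1 and Dbp, taken by name from the 24421 genes counted in mouse pancreatic islets; all 10 passed the filter on low counts that left 13583 genes. Of the 12 libraries 6 came from islets of Il22ra1βKO mice (here BKO), whose insulin-producing β cells lack interleukin-22 receptor subunit alpha 1. They were set against 6 from Ins2Cre mice (here Cre), which carry a Cre recombinase named for the insulin gene Ins2. Mice of both genotypes had received a high-fat diet for 6 weeks. Whole islets also hold α, δ, endothelial and other cells in which the receptor gene was not the stated target. The sources used here give no age, full allele names or hour of islet collection. They do not say whether each library is 1 animal, so the p-values cover only the spread between these samples, which may be technical.

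The circadian clock is a feedback loop of transcription. ARNTL (also called BMAL1) pairs with CLOCK or its relative NPAS2 and activates genes that carry E-box elements, among them those of the PER and CRY repressors, of the nuclear receptor NR1D1 (REV-ERBα) and of the output factor DBP. PER and CRY proteins then inhibit the activator, and NR1D1 represses Arntl, so that in rhythmic tissues Arntl peaks at nearly the opposite time of day from Nr1d1 and Dbp, with the Per genes following them. In mouse islets the clock times insulin secretion, and loss of ARNTL in β cells impairs it. Levels of these genes in a tissue sample therefore depend on the hour of collection.

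Promoter windows of 300 bases around RefSeq transcription starts (GRCm38.p6, which is mm10) were found for 9 of the 10 genes. The 4 shown here hold elements through which the loop is known to act. Capitals mark, on either strand, the E-box (CACGTG), the variant E-box (CACGTT, read as AACGTG on the other strand), the D-box bound by DBP and its relatives (TTATGTAA), or the element bound by ROR and NR1D1 (RORE, searched as TAGGTCA or TGGGTCA). The cyclic AMP response element (TGACGTCA) was searched as well.
Arntl, chr7:113207261-113207560, plus strand: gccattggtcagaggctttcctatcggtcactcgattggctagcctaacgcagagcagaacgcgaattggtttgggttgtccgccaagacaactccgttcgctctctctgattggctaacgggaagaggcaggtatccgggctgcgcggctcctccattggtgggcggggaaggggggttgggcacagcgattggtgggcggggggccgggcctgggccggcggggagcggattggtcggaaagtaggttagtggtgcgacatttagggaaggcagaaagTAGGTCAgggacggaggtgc
Per1, chr11:69098699-69098998, plus strand: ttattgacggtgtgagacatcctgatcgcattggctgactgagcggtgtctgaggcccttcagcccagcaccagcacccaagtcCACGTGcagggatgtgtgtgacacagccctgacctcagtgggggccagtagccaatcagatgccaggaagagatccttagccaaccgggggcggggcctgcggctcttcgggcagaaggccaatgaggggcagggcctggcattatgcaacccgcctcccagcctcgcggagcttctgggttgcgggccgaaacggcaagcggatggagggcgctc
Per3, chr4:151044616-151044915, minus strand: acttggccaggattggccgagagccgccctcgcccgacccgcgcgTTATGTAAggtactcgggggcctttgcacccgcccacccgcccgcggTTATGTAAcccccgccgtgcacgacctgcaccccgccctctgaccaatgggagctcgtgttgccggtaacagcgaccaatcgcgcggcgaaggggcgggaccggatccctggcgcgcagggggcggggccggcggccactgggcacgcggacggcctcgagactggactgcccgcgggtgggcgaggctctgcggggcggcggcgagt
Cry1, chr10:85185005-85185304, minus strand: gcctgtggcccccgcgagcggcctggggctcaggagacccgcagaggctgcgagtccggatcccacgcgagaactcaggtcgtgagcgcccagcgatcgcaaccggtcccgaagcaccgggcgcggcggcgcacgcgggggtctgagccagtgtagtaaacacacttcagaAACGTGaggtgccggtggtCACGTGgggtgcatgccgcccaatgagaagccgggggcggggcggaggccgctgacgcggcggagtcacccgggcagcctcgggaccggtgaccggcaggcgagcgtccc
The Arntl window, at the second of 2 listed starts, held 1 RORE 30 bases after the start. Its window at the first start held none of the motifs. The Per1 window, at the first of 2 listed starts, held 1 E-box 166 bases before the start, and the window at the second start held none of the motifs. The Cry1 window held an E-box 60 bases and a variant E-box 79 bases before the start. The Per3 window held 2 D-boxes, 205 and 158 bases before the start. Among all 32851 windows of this length, 7.15% held an E-box, 4.69% a variant E-box, 0.938% a D-box, 6.45% a RORE and 1.79% a cyclic AMP response element. Single variant E-boxes were also found for Nr1d1 and Cry2, and none of these motifs in the windows of Dbp, Npas2 or Clock. No motif overlapped another in the members' windows.

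None of the 10 genes passed the test between genotypes. It was the quasi-likelihood test of edgeR, adjusted by Benjamini and Hochberg's method over the 13583 genes, of which 0 (0%) had an adjusted p below 0.05. Before adjustment 1815 genes (13.4%) had a p below 0.05, of which 1182 (8.7%) were higher and 633 (4.66%) lower in BKO. Of the 10 clock genes 1, Npas2, was higher at that level and 0 were lower. DESeq2 called 223 genes in all and limma-voom 0, and both called 0 of the 10. The median log2 fold change (BKO over Cre) of the 10 was 0.062, against 0.0078 for all genes. In 0 of the 10 did the BKO and Cre libraries not overlap, which happened in 0.508% of all genes. Leaving Npas2 aside, the 95% intervals of the log2 fold changes ran no lower than -0.30 (Per3) and no higher than 0.39 (Arntl), which bounds the difference but does not show that the genotypes are alike.

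Gene totals ranged from 10356093 to 11902217 reads in BKO and from 11444273 to 12397139 in Cre, and the members held between 48 reads (Npas2) and 1843 reads (Clock) in a library. The targeted gene, Il22ra1, had between 1 and 3 reads in a BKO library (13 in all) and between 1 and 5 in a Cre library (16 in all), so the deletion could not be checked at this depth. Values in CPM, the usual depth-scaled read count, use library sizes scaled by edgeR's TMM method. All 12 β-cell markers listed were present in every library, with 11 of 12 log2 fold changes negative, 5 at an unadjusted p below 0.05, and a summed level of 98837 to 157413 CPM in BKO and 122379 to 153760 CPM in Cre. The 8 α-cell markers, 8 of them with a positive log2 fold change and 7 at an unadjusted p below 0.05, summed to 12784 to 25882 CPM in BKO and 9532 to 14927 CPM in Cre. Of 3 δ-cell markers 3 were positive, 3 at an unadjusted p below 0.05, with sums of 1441 to 2182 CPM in BKO and 1225 to 1895 CPM in Cre. Of 14 mesenchymal markers 13 were positive, 8 at an unadjusted p below 0.05, with sums of 183 to 277 CPM in BKO and 135 to 243 CPM in Cre. Acinar genes, of the enzyme-secreting pancreas around the islets, had 19 of 19 log2 fold changes positive and 0 at an unadjusted p below 0.05, and summed to between 1863 and 6563 CPM in BKO and between 301 and 8533 CPM in Cre. Of 12 duct markers 8 were positive, 4 of them at an unadjusted p below 0.05. Of 15 macrophage markers tested 5 were positive and 10 negative, with 1 higher and 3 lower at that level. Over all 13583 genes 7168 had a positive log2 fold change, and 8.7% were higher and 4.66% lower at that level. Whether these shares of other cells bear on the clock genes was not tested, except by the covariates given beside the values.

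**Figure D1:**
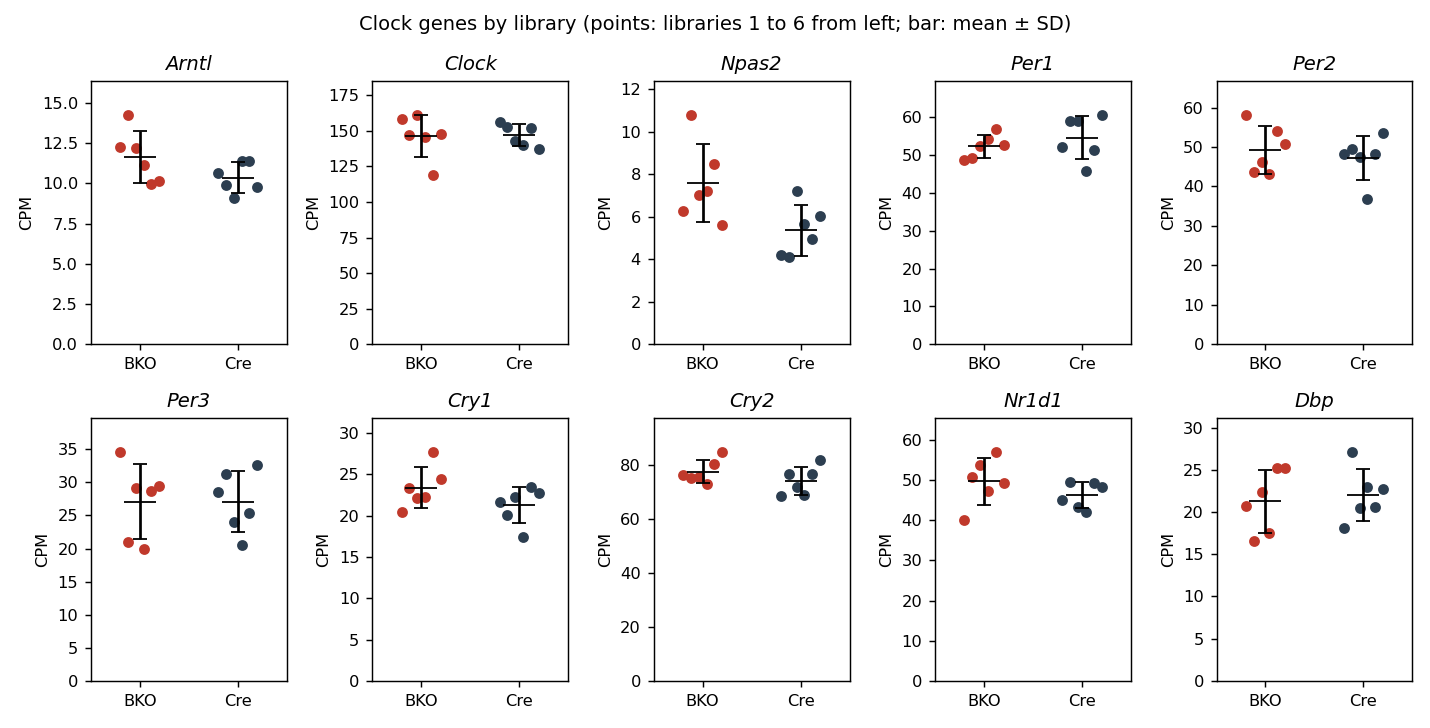
Levels of the 10 clock genes in CPM (vertical axis, from 0) in 6 BKO and 6 Cre libraries, each point a library and the bar the mean ± SD. Groups overlap for every gene; the Npas2 mean is 7.58 CPM in BKO and 5.36 CPM in Cre.

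Per kilobase of exon, Nr1d1 was the most abundant of the 10 and Npas2 and Arntl the least. Nr1d1 was at 16.2 ± 1.90 RPKM in BKO and 15.1 ± 1.06 RPKM in Cre (SD, n = 6 each here and below). Cry2 was at 12.3 ± 0.683 and Clock at 10.7 ± 1.09 RPKM in BKO, against 11.7 ± 0.822 and 10.7 ± 0.558 RPKM in Cre. Next came Per1 (9.30 ± 0.547 RPKM in BKO, 9.71 ± 1.03 RPKM in Cre), Per2 (8.41 ± 1.03 and 8.08 ± 0.949), Dbp (7.10 ± 1.23 and 7.35 ± 1.02) and Cry1 (7.01 ± 0.749 and 6.37 ± 0.663). Per3 stood at 2.82 ± 0.585 RPKM in BKO and 2.82 ± 0.478 RPKM in Cre. Arntl was at 1.55 ± 0.212 RPKM in BKO and 1.38 ± 0.125 RPKM in Cre, and Npas2 at 1.58 ± 0.384 RPKM in BKO and 1.12 ± 0.250 RPKM in Cre. Along this order Nr1d1 stood clear of Cry2, Cry1 clear of Per3, and Per3 clear of the 2 genes under it, by more than the SDs in both genotypes. Among the genes from Cry2 down to Cry1, neighbours lay within their joint SDs in both genotypes, and so did Arntl and Npas2. The order of Arntl and Npas2 differed between the genotypes.

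Arntl, the partner common to both activator pairs, showed no difference beyond the spread between replicates. Its gene spans bases 113207465 to 113314126 of chromosome 7, plus strand (GRCm38). Its level was 12.2, 14.2, 12.2, 11.2, 9.93 and 10.1 CPM in BKO libraries 1 to 6. In Cre libraries 1 to 6 it was 10.7, 9.88, 9.06, 11.4, 11.4 and 9.77 CPM. BKO-2 was the highest and Cre-3 the lowest of all, and the groups overlapped. Its log2 fold change, BKO over Cre, was 0.17 ± 0.11 (SE; adjusted p = 0.529), with 4 of 6 BKO libraries above the Cre mean (exact two-sided permutation p = 0.115). Clock, the activator's other subunit, was the member with the highest CPM. It ranged from 118.7 CPM through a median of 147.7 to 160.9 CPM in BKO, and from 137.5 through 147.3 to 156.5 CPM in Cre. BKO-5 held the lowest value, and the other 5 BKO libraries began at 145.8 CPM. Clock had a log2 fold change of -0.0039 ± 0.065 (adjusted p = 0.990), and 0.037 without BKO-5.

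Npas2, which can replace CLOCK as the partner of ARNTL, had the largest log2 fold change of the 10 but did not pass the test over all genes. It spans bases 39193731 to 39363236 of chromosome 1, plus strand. Its level was 6.29, 10.8, 7.04, 7.23, 8.51 and 5.63 CPM in BKO libraries 1 to 6. In Cre libraries 1 to 6 it was 4.21, 4.09, 7.23, 5.65, 4.94 and 6.04 CPM. All 6 BKO libraries lay above the Cre mean, yet Cre-3, Cre-4 and Cre-6 reached into the BKO range. For Npas2 the log2 fold change was 0.50 ± 0.17 (SE, 95% interval 0.13 to 0.86), with an unadjusted p of 0.0105 and an adjusted p of 0.229 by edgeR; the exact two-sided permutation p was 0.0281. Adjusted p-values ran from 0.164 (DESeq2) to 0.998 (endothelial score as a covariate) over the alternatives, and without BKO-2 the log2 fold change was 0.35 (edgeR unadjusted p = 0.0465). Of the endothelial markers 16 of 16 had a positive log2 fold change, 14 of them with an unadjusted p below 0.05, against 8.7% higher at that level over all genes and 7168 of 13583 positive. None of these markers was at 0 reads in any library. Their summed level was 662 to 948 CPM in BKO and 515 to 742 CPM in Cre. With their mean log2 level as a covariate, which is itself higher in BKO, Npas2 was at 0.44 ± 0.29 (edgeR unadjusted p = 0.149). Their part in the Npas2 difference was not tested further. In whole islets more cells of a type and more RNA per cell cannot be told apart. Arntl2, the paralog of Arntl, averaged 3.19 ± 0.454 CPM in BKO, against 2.39 ± 0.443 CPM in Cre, which gave 0.42 ± 0.18 on the log2 scale (edgeR unadjusted p = 0.0307, adjusted p = 0.318).

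**Figure D2:**
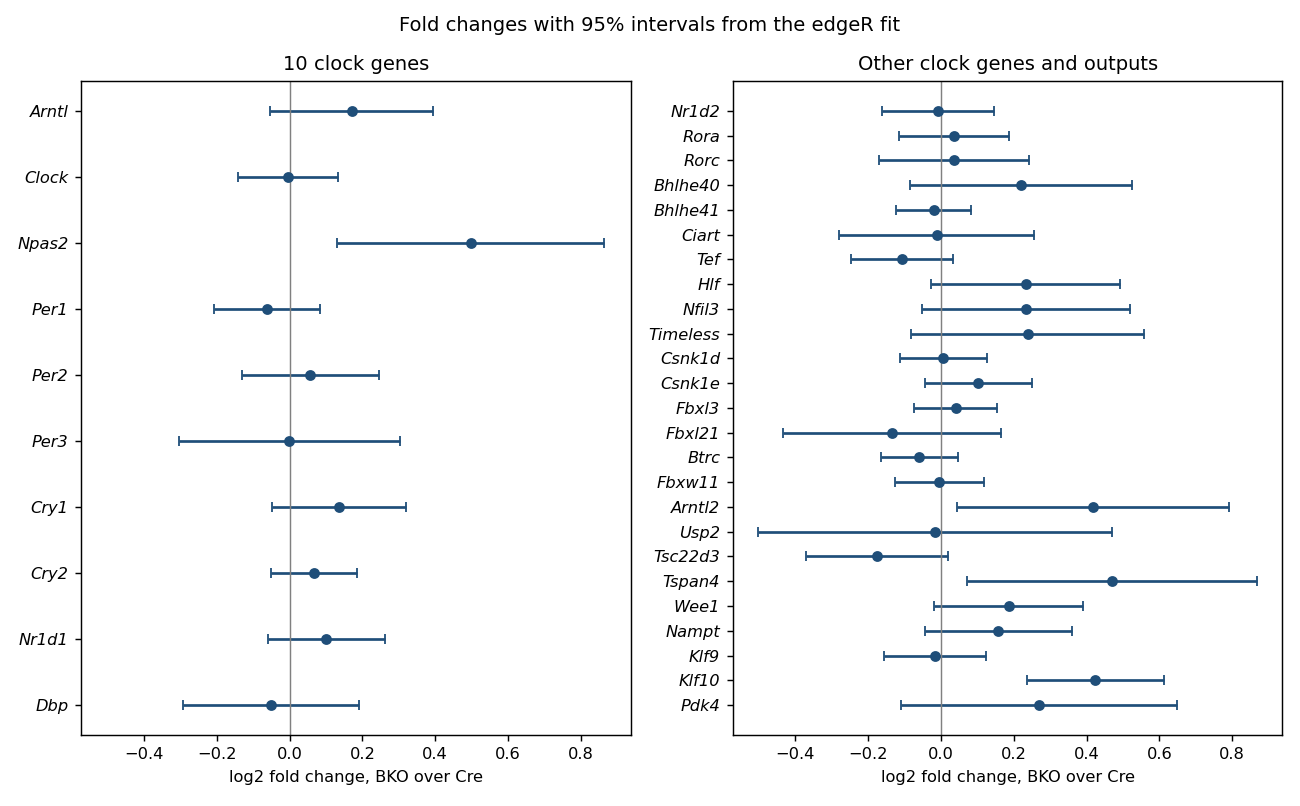
Log2 fold changes of BKO over Cre (horizontal axis) with 95% intervals from the edgeR fit, for the 10 clock genes (left) and 25 other clock and output genes (right). The intervals of Npas2, Arntl2, Tspan4 and Klf10 leave out 0, and none of these genes passed after adjustment over all genes.

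The 3 Period genes, whose proteins form the repressor complex that holds back the activators, differed between genotypes by less than the replicate spread. Per1 ranged from 48.8 through a median of 52.5 to 56.9 CPM in BKO and from 45.9 through 55.6 to 60.5 CPM in Cre. Cre-4 was the lowest and Cre-6 the highest library, so the BKO values lay inside the Cre range. Per1 had a log2 fold change of -0.062 ± 0.069 (edgeR adjusted p = 0.770). Per1 can also be induced acutely by cyclic AMP and glucocorticoid signals. Of 23 immediate early genes tested, 22 had a positive log2 fold change, 12 at an unadjusted p below 0.05, with a median of 0.31. Over all 13583 genes 7168 had a positive log2 fold change and 8.7% were higher at that level. Of 9 glucocorticoid-responsive genes tested, 7 were positive, 4 of them at an unadjusted p below 0.05, with a median of 0.21. Those 4 were Sgk1, Ddit4, Dusp1 and Errfi1. The 2 negative genes were Tsc22d3 (-0.18) and Klf9 (-0.016), and Fkbp5 was at 0.0042. None of these genes passed after adjustment over all genes, and Dusp1 stands on both lists.

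Per2 was at 58.0, 43.5, 46.1, 43.0, 54.1 and 50.7 CPM in BKO libraries 1 to 6. The Cre libraries, in the same order, held 48.3, 49.4, 47.6, 36.8, 48.2 and 53.5 CPM. Cre-4 stood below all other libraries and BKO-1 above them. For Per2 the log2 fold change was 0.057 ± 0.089 (edgeR adjusted p = 0.851), and -0.013 without Cre-4. Per3 stood at 34.6, 20.9, 29.1, 19.9, 28.6 and 29.4 CPM in BKO libraries 1 to 6. In Cre, again from 1 to 6, Per3 was at 28.5, 31.3, 24.1, 20.5, 25.4 and 32.6 CPM. The same BKO-1 was highest, and BKO-4, Cre-4 and BKO-2 were lowest, so the spread ran inside each genotype. For Per3 the log2 fold change was -0.00036 ± 0.14 (edgeR adjusted p = 0.999).

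The cryptochromes, partners of the PER proteins, and the output genes also differed by less than the replicate spread. Cry1 ranged from 20.4 through a median of 22.8 to 27.7 CPM in BKO and from 17.4 through 22.0 to 23.5 CPM in Cre (log2 fold change 0.14 ± 0.087, edgeR adjusted p = 0.549). Cry2 ranged from 72.7 through 75.9 to 84.7 CPM in BKO and from 68.5 through 74.1 to 81.7 CPM in Cre (0.066 ± 0.056, edgeR adjusted p = 0.679). Both had 5 of 6 BKO libraries above the Cre mean. Nr1d1, the repressor of Arntl, was at 40.0, 50.8, 53.8, 47.3, 57.0 and 49.4 CPM in BKO libraries 1 to 6. Cre libraries 1 to 6 had 45.1, 49.7, 43.3, 42.1, 49.4 and 48.4 CPM. The BKO libraries held both the lowest value, in BKO-1, and the highest, in BKO-5. For Nr1d1 the fold change on the log2 scale was 0.10 ± 0.076 (edgeR adjusted p = 0.625), and 0.15 without BKO-1 (edgeR unadjusted p = 0.0330). With the endothelial score as a covariate the fold changes of Cry1 (-0.098) and Nr1d1 (-0.099) turned negative. Dbp, a PAR-domain transcription factor that relays the clock to other genes, was at 20.7, 16.6, 22.3, 17.5, 25.2 and 25.2 CPM in BKO libraries 1 to 6. Cre libraries 1 to 6 had 18.1, 27.1, 20.4, 23.0, 20.6 and 22.8 CPM. Cre-2 was the highest and BKO-2 the lowest. Dbp had a log2 fold change of -0.051 ± 0.11 (edgeR adjusted p = 0.908). Exons of Dbp share 539 bases with Sphk2, those of Nr1d1 263 bases with Thra and those of Cry2 295 bases with D930015M05Rik, all on the opposite strand. Whether counting used strand is not stated in those sources, so reads from the shared bases are uncertain.

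The level of each clock gene varied by less than 2-fold over the 12 libraries, except that of Npas2. The highest library exceeded the lowest by 1.24-fold for Cry2, 1.32-fold for Per1, 1.36-fold for Clock, 1.43-fold for Nr1d1, 1.57-fold for Arntl, 1.58-fold for Per2, 1.59-fold for Cry1, 1.63-fold for Dbp and 1.74-fold for Per3, and by 2.64-fold for the weakly expressed Npas2. Over all 12 libraries Dbp minus Arntl on the log2 CPM scale was between 0.22 (BKO-2) and 1.45 (Cre-2). It was 0.86 ± 0.42 in BKO and 1.08 ± 0.25 in Cre (SD, n = 6 each). Nr1d1 minus Arntl was 2.09 ± 0.29 in BKO and 2.16 ± 0.17 in Cre, between 1.70 (BKO-1) and 2.52 (BKO-5). Every library thus had more Dbp and Nr1d1 reads than Arntl reads, and the ranges of the genotypes overlapped in both differences.

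**Figure D3:**
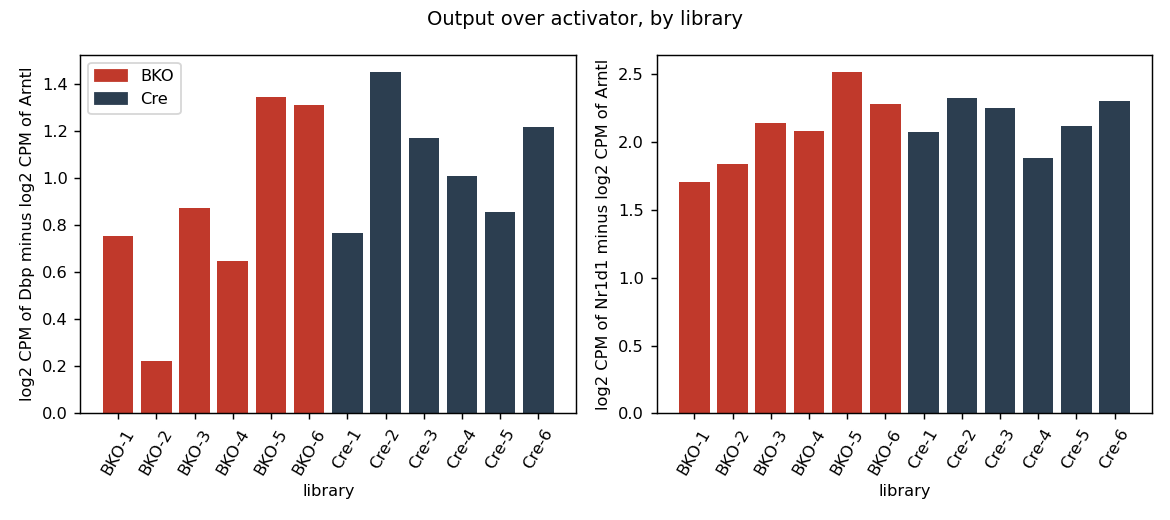
Dbp minus Arntl (left) and Nr1d1 minus Arntl (right), as differences in log2 CPM (vertical axis, from 0), 1 bar per library. All bars are positive; BKO-2 has the lowest Dbp difference (0.22) and BKO-5 the highest Nr1d1 difference (2.52).

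Within a genotype the SD of log2 CPM ran from 0.090 for Cry2 to 0.32 for Npas2. Among all 13583 genes the within-genotype SD of Npas2 stood at percentile 81.2, that of Per3 at 76.9, that of Dbp at 69.4 and that of Cry2 at 14.7. Npas2 was at percentile 21.6 of level, Arntl at 29.8, Dbp at 44.4 and Cry2 at 78.6, with Per3 between Dbp and Cry2. Arntl, at a lower level than Dbp and Per3, had its SD at percentile 53.5, below both. The SD that read counting alone would give was 0.168 for Npas2, 0.128 for Arntl, 0.0818 for Per3 and 0.0916 for Dbp. Their within-genotype SDs were 0.323, 0.165, 0.284 and 0.228. Whether read depth sets the order of the SDs was not tested.

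Whether libraries varied together along the loop was examined over all 45 pairs of members. For Pearson's r, 1 of the 45 passed after Benjamini-Hochberg adjustment over the 45 pairs and 5 had an unadjusted permutation p below 0.05, and for Spearman's rho 2 passed. Of the 20 pairs that set Arntl, Npas2, Clock or Cry1 against Nr1d1, Dbp, Per1, Per2 or Per3, 13 had a negative r, 0 passed for Pearson's r, 1 passed for Spearman's rho (Arntl with Per1) and 2 had an unadjusted permutation p below 0.05. Of these 2, Arntl with Per1 had a negative r. Cry1 with Nr1d1 had a positive r of 0.71 (permutation p = 0.01, adjusted p = 0.15). With the genotype means removed, 12 of the 20 were negative. A grouping chosen after the values were seen is given as a description: with genotype means removed, Per1, Per2, Per3, Cry1, Cry2, Nr1d1 and Dbp had a positive r in 21 of their 21 pairs, from 0.063 to 0.87. Not all stayed positive in fewer libraries. Within BKO these 21 ran from -0.33 (Per2 with Nr1d1) to 0.88 (Per2 with Per3). Within Cre they ran from -0.42 (Cry1 with Dbp) to 0.88 (Per2 with Per3). Without the 2 libraries farthest from the median of a pair's first gene, they ran from -0.34 to 0.80. Arntl had a negative r with each of these 7 genes, from -0.75 to -0.20. Clock also had a negative r with these genes, from -0.49 (Cry1) to -0.062 (Per2), except for an r of 0.15 with Per3. Npas2 had an r of either sign with them, from -0.50 (Per3) to 0.20 (Cry1). All genes of a library share its composition and scaling, whose part in these correlations was not tested.

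Per2 and Per3 were the pair that passed, and are named because of it. Their log2 CPM correlated over the 12 libraries with a Pearson r of 0.86 (permutation p = 0.00014, adjusted p = 0.0063) and a Spearman rho of 0.85 (permutation p = 0.00079, adjusted p = 0.0178). Without BKO-1 and Cre-4, the libraries farthest from the median of Per2, r was 0.82. Within the BKO libraries r was 0.88 (exact permutation p = 0.0319, n = 6), and within the Cre libraries 0.88 (exact permutation p = 0.00139, n = 6). The acinar markers summed to 1873 CPM in BKO-1, where both genes were highest, and to 5236, 4706 and 1592 CPM in BKO-4, BKO-2 and Cre-4, the 3 libraries where Per3 was lowest, and their part in the correlation was not tested.

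Arntl and Per1 were opposed. Pearson's r was -0.76 (permutation p = 0.00441), which did not pass over the 45 pairs (adjusted p = 0.0992), whereas Spearman's rho of -0.87 did (permutation p = 0.00058, adjusted p = 0.0178). Without BKO-2 and Cre-3, the libraries farthest from the median of Arntl, r was -0.75. Within BKO r was -0.80 (exact permutation p = 0.0542, n = 6), and within Cre -0.88 (exact permutation p = 0.0306, n = 6). Without Cre-4, r was -0.84 and passed (permutation, adjusted p = 0.0238). Arntl and Dbp had an r of -0.55 (permutation p = 0.0660, adjusted p = 0.386; Spearman's rho -0.39, permutation p = 0.210), -0.50 without BKO-2 and Cre-3, with -0.76 in BKO (exact permutation p = 0.0819, n = 6) and -0.15 in Cre (exact permutation p = 0.803, n = 6). Arntl and Nr1d1 had an r of -0.0019 (permutation p = 0.995, adjusted p = 0.995), and of -0.43 without BKO-2 and Cre-3.

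**Figure D4:**
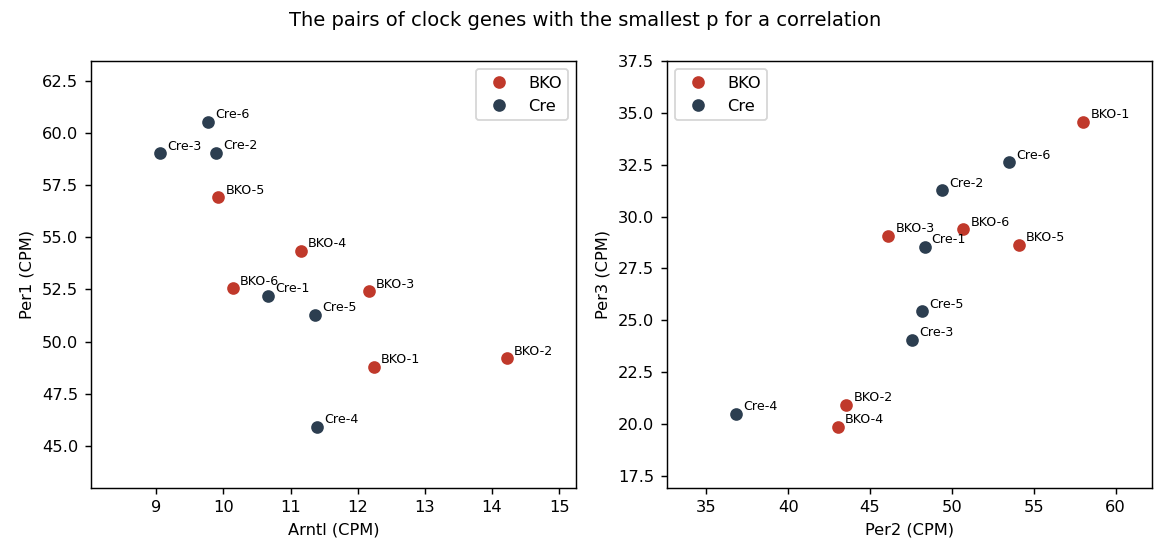
Levels in CPM of Per1 against Arntl (left) and of Per3 against Per2 (right), 1 point per library, labelled by genotype and replicate. Per1 is lower where Arntl is higher (r = -0.76), and Per3 is higher where Per2 is higher (r = 0.86), in both genotypes; the axes do not start at 0.

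**Figure D5:**
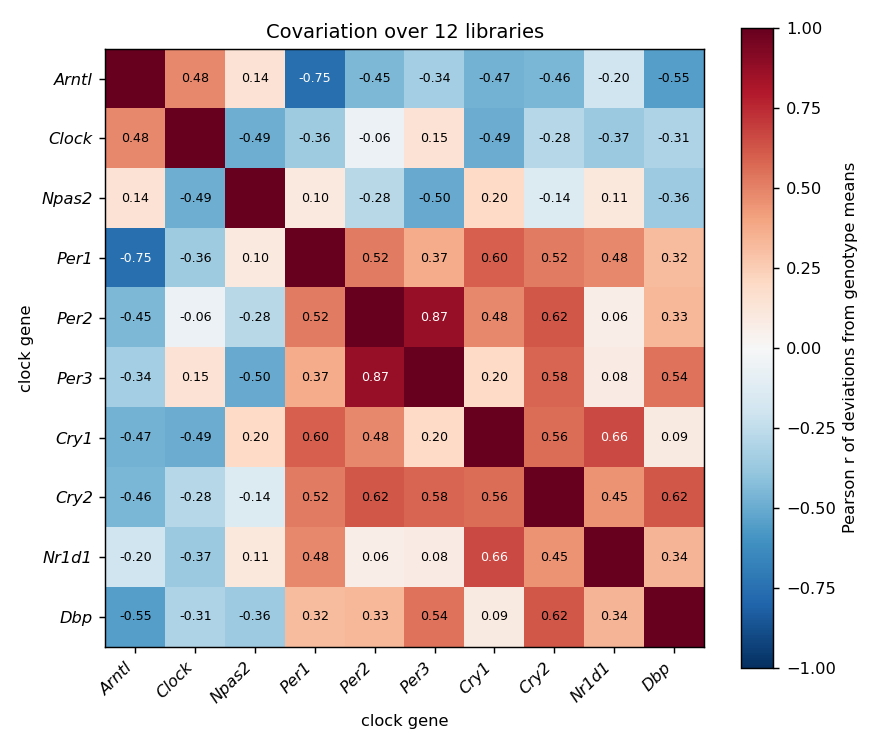
Pearson r between log2 CPM of each pair of clock genes over 12 libraries after removal of genotype means (colour from -1, blue, to 1, red). The block from Per1 to Dbp, a grouping chosen after the values were seen, is positive throughout (21 of 21 pairs). The Arntl row is negative against these 7 genes.

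Genes that followed Dbp and Arntl most closely across libraries were mostly outside the clock. Among 11902 genes with a mean log2 CPM of at least 1, the Pearson r of deviations from the genotype means with Dbp was highest for Nrtn (0.93), Fbxo7 (0.89), Degs2 (0.88), Podxl2 (0.88) and Reep6 (0.88), and lowest for Ugcg (-0.92), Itgb1 (-0.90), Atxn7l1 (-0.89), Fgl2 (-0.88) and Bicd1 (-0.87). Tef, a PAR-domain relative of Dbp, was 49th from the top (r = 0.79), and Ciart, a repressor of the ARNTL and CLOCK pair, was 182nd (0.67). Cry2 was 298th (0.62) and Per3 was 561st (0.54), while Hlf, the other PAR-domain factor, was at 0.048. For Arntl the highest were Vamp4 (0.87), Pign (0.83), Tmem199 (0.82), Thap1 (0.82) and Slc25a40 (0.82), and the lowest Hcn4 (-0.85), Aven (-0.84), Ddx11 (-0.83), Gtf2ird2 (-0.83) and Tmem110 (-0.83). Per1 was 11878th of 11902 from the top. These are descriptions over 12 libraries that share depth and composition.

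Among other genes of the loop and its outputs, Klf10 had the smallest p. Of 18 further clock genes that were counted, 17 were tested, 10 with a positive and 7 with a negative log2 fold change, a median of 0.035, and 1 at an unadjusted p below 0.05 (Arntl2). Of 8 output genes 5 were positive and 3 negative, with a median of 0.17 and 2 at an unadjusted p below 0.05. At that level 8.7% of all 13583 genes were higher and 4.66% lower in BKO, and the median over all genes was 0.0078. No gene of either list passed the test over all genes. Nr1d2, the paralog of Nr1d1, averaged 104 ± 13.5 CPM in BKO, against 104 ± 4.96 CPM in Cre, and Bhlhe41, a repressor of E-box genes, 100.4 ± 2.01 CPM in BKO, against 101.8 ± 6.51 CPM in Cre. Tef had a log2 difference of -0.11 ± 0.066, Ciart of -0.013 ± 0.13 and Hlf of 0.23 ± 0.12. Nfil3, a repressor that competes with DBP for the D-box, was at 0.23 ± 0.13.

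Klf10, a zinc-finger factor under clock control that also responds to TGF-β, was at 40.3, 51.4, 34.3, 34.9, 38.2 and 37.5 CPM in BKO libraries 1 to 6. Klf10 in Cre libraries 1 to 6 was at 29.3, 28.1, 30.2, 28.9, 33.2 and 26.7 CPM. All 6 BKO libraries lay above all 6 Cre libraries. The ranges did not overlap in 0.508% of all genes, and each such gene has the same exact permutation p. On the log2 scale BKO was higher by 0.42 ± 0.089 (SE; edgeR unadjusted p = 0.000167, adjusted p = 0.121), and the exact two-sided permutation p was 0.00216, the smallest that splits of 6 against 6 can give. DESeq2 gave an adjusted p of 0.0127, and edgeR passed it without BKO-4 (adjusted p = 0.0259) and without Cre-5 (adjusted p = 0.0356). Over all alternatives run its adjusted p lay between 0.0127 and 0.998, the highest with the endothelial score as a covariate, where the log2 fold change was 0.23 (edgeR unadjusted p = 0.102). Without BKO-2, the highest library, it was 0.32. Tspan4, a tetraspanin reported to cycle in several mouse organs, averaged 18.6 ± 3.26 CPM in BKO, against 13.4 ± 4.37 CPM in Cre (0.47 ± 0.19, edgeR adjusted p = 0.293). It passed without Cre-5 (adjusted p = 0.0454) and was at -0.20 with the endothelial score as a covariate.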

How the data were processed

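Islet RNA of 6 BKO and 6 Cre samples was extracted with TRIzol and sequenced as read pairs on a NovaSeq, per the labels' protocols. The submitters' processing notes name HISAT2 2.0.5, HTSeq and mm10, without annotation or strand setting. The files deposited for each sample hold raw read counts per gene symbol, followed by 5 summary lines that name no gene. Those lines held on average 37.2% of counted reads in BKO and 38.3% in Cre and stayed out of library sizes and tests. A table of all samples, deposited by the authors, holds CPM over all lines. Each CPM was divided by the smallest value above 0 in its library, which gave whole reads (100% within 0.001). Rounded, these equalled the counts for all 24420 genes in that table. The count test on those reads called 0 genes, an alternative chosen after seeing the data.

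Genes were kept by filterByExpr and tested with edgeR 4.0.16 in R 4.3.3 (TMM, robust quasi-likelihood fit, Benjamini-Hochberg over all genes at 0.05). Log2 CPM used a prior count of 0.5. RPKM divides these CPM by the exon length of GENCODE M21 (GRCm38, which is mm10). Exact permutation tests are two-sided over all splits of 6 against 6; correlations used 100000 resamples over 12 libraries and every order within 6. Replicate libraries all differed by more than sampling noise (chi-square over degrees of freedom, 5.08 to 30.0). In counts simulated for BKO against Cre (13475 genes kept), each fold change was planted in 50 genes. Every gene was drawn independently of the others. The test recovered 32% of genes changed 1.25-fold, 86% of those changed 1.5-fold, 98% of those changed 2-fold and 92% of those changed 3-fold, with 9 false calls. Composition shared by the genes of a library was not simulated, so recovery in the real counts may be lower. Alternatives were other scalings, count filters, DESeq2 1.42.0, limma 3.58.1 (voom), the replicate number as a block, acinar or endothelial scores as covariates, and each library left out. The members and lists were chosen with earlier results of these data known. Named genes are the members, other clock genes at an unadjusted p under 0.05 and Nr1d2, Tef, Hlf, Nfil3, Ciart and Bhlhe41, and the 5 genes most and least like Dbp and Arntl, among genes with a mean log2 CPM of at least 1, leaving out predicted gene models. The pairs of members planned for naming were those of Arntl, Npas2, Clock and Cry1 with Nr1d1, Dbp and the Per genes, of which the text gives only some. Per2 with Per3, Per2 with Nr1d1, Cry1 with Dbp, Clock with Cry1 and Npas2 with Cry1 were added after their values were seen. The pairs of Clock and Npas2 given were picked by their values. 1 symbol on the list of further clock genes is an older name of Ciart and was not in the files.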

Additional observations from a re-analysis of the deposited data

Results flagged for a closer look

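Among 42 sets of 6 values checked for a library far from the others, 2 stood out, where chance flags about 1 in 20 such sets. Clock was at 118.7 CPM in BKO-5, and on the log2 CPM scale its gap to the nearest other BKO library was 0.676 of the group's range. Per2 was at 36.8 CPM in Cre-4, and on the log2 CPM scale its gap to the nearest other Cre library was 0.687 of the group's range.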

How the results depend on the processing

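The count of clock members past the threshold was 0 under every alternative run. Of the 25 other clock and output genes, 0 passed in the main test, 1 with DESeq2, 1 with the replicate block (Klf10 in both, with adjusted p = 0.0189 under the block) and between 0 and 2 with a library left out (2 without Cre-5, Klf10 and Tspan4). Over all genes, 0 passed in the main test, 223 with DESeq2, 364 with the replicate block, 262 without BKO-4 and 110 without Cre-5; limma-voom called 0. The labels do not say that the replicate numbers pair samples. Deviations of the 6 same-numbered pairs correlated at -0.089 to 0.31, with 4 of 6 over 0.1, and 4 of 6 BKO and 3 of 6 Cre libraries correlated best with the library of their own number. Of the 45 pairs of members, 1 passed as a correlation, and between 1 and 2 with a library left out (2 without Cre-4). Some log2 fold changes had the other sign under an alternative. With upper-quartile scaling Clock was at 0.0010 and Per3 at 0.0046. With the acinar score Per3 was at 0.043 and Nr1d2 at 0.00078. With the endothelial score Clock was at 0.066, Per3 at 0.082, Cry1 at -0.098, Nr1d1 at -0.099, Tspan4 at -0.20, Nr1d2 at 0.15 and Nfil3 at -0.012, where without it Cry1 was at 0.14, Nr1d1 at 0.10, Tspan4 at 0.47 and Nfil3 at 0.23, and 0 members had an unadjusted p under 0.05. With a library left out the log2 fold change ran from -0.034 to 0.037 for Clock, from -0.013 to 0.087 for Per2, from -0.091 to 0.059 for Per3, from -0.12 to 0.0096 for Dbp, from -0.066 to 0.025 for Nr1d2, from -0.13 to 0.034 for Ciart and from -0.058 to 0.0011 for Bhlhe41. The r of Arntl and Nr1d1 ran from -0.18 to 0.20. The cause was not tested. Of the 10 clock genes Npas2 had the fewest reads, 48 to 122 in a library.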
